A study of Homo sapiens with 44 samples.

Results

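Kelly is an established human neuroblastoma line that carries amplified MYCN, the driver oncogene of a large share of high-risk tumours of this kind. In the study these cells were kept with the vehicle DMSO or with 8 µM STM2457, an inhibitor of the m6A RNA methyltransferase METTL3, for 1 day or 6 days. The comparison described here uses the vehicle alone: the 3 input libraries of DMSO-treated Kelly cells at 6 days were set against the 3 at 1 day, which makes 6 of the 44 libraries of the series, picked by cell line, treatment, time and library type in the labels. It addresses what changed in control cells with time in culture. Both groups were labelled as wild-type cells in RPMI medium with serum, glutamine and antibiotics. The inputs hold polyadenylated RNA that was fragmented by sonication and turned into cDNA with a template-switching kit, before any m6A pulldown. The labels used here give no seeding density, passage or change of medium, and do not say whether replicates came from separate cultures, so the p-values measure the spread between these libraries, which may be technical.

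Cells that stay in one dish use up amino acids, glucose and oxygen, become dense and divide less. Shortage of amino acids and stress in the endoplasmic reticulum both lead, through phosphorylation of the initiation factor eIF2α, to translation of the transcription factor ATF4. ATF4 then turns on a set of regulators and enzymes of amino acid supply, a programme known as the integrated stress response. Low oxygen acts through HIF factors, sterol supply through SREBP factors, and entry into the cell cycle through E2F factors and cyclin-dependent kinases. In neuroblastoma an adrenergic set of transcription factors holds the noradrenergic identity of the cells, and a mesenchymal state is marked by genes such as TWIST1, VIM and PRRX1.

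The 3 libraries of day 1 held 24143331 to 26559877 counts over protein-coding genes and the 3 of day 6 held 12086438 to 12780130. The table headers placed the day-1 inputs and the day-6 libraries in different processing folders, so time in culture and processing run cannot be told apart in this contrast. Of 13221 genes tested with edgeR's quasi-likelihood test, 10452 (79.1%) had an adjusted p under 0.05. Among them 5017 (37.9%) were higher and 5435 (41.1%) lower at 6 days, and 2581 (19.5%) were at least 2-fold higher and 2457 (18.6%) at least 2-fold lower. For 10630 genes (80.4%) the 3 libraries of one day lay outside the range of the other. A list of genes is therefore read below against these shares, and a share near them is no result about that list.

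Change followed gene length and base composition. Over the decile of genes with the shortest exon length the median log2 change was 1.02, and over the longest decile it was -0.81. Over the decile with the lowest GC content it was -0.63, and over the highest 1.13. Abundance-weighted mean exon length was 6223 ± 28 bases (SD, n = 3) at 1 day and 4938 ± 6.3 at 6 days (two-sided exact permutation p = 0.1, the smallest that 3 against 3 libraries allow). A second fit therefore took a smooth trend of each library on length and GC content as an offset. With these offsets 75% of 12966 genes passed the test: 34.5% rose and 40.5% fell, 14.4% rose at least 2-fold and 11.9% fell at least 2-fold. The log2 change in this second fit is called the offset value. It is printed where a gene's change over time in DMSO cells is first given if it differed by over 1.5 times or moved the gene across the threshold.

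**Figure D1:**
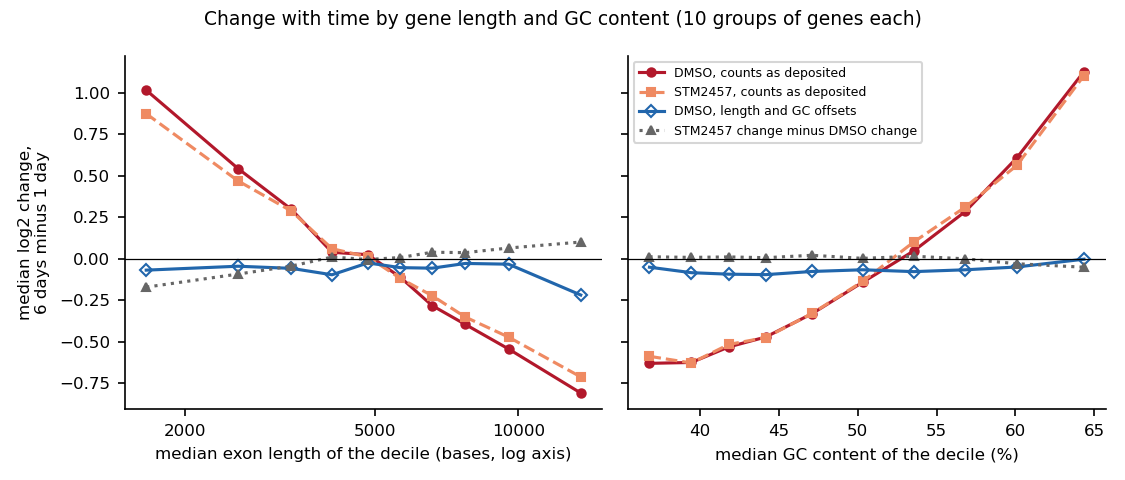
Median log2 change from 1 to 6 days for 10 groups of genes ordered by exon length (left, log axis) and by GC content (right); points are the DMSO inputs, the STM2457 inputs, the DMSO inputs with length and GC offsets, and the difference between the treatments. In DMSO cells the median falls from 1.02 to -0.81 with length and rises from -0.63 to 1.13 with GC content, the STM2457 cells run alongside, and the offset values lie near 0.

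Most genes with nearly identical copies rose. The 185 genes with at least 50% of their 31-base words (31-mers) at another locus had 118 rises, 24 falls and a median log2 change of 1.19, whereas the 1232 genes with 10 to 50% had 37.5% rises, 42.6% falls and a median of -0.09, near the background. All 9 tested names that the annotation lists on both sex chromosomes rose, with a median log2 change of 5.62. Some of them, such as AKAP17A and GTPBP6, were almost absent at 1 day and passed the low-count filter through the day-6 libraries. Their rises therefore follow from the filter. The sum over all 18 names on both sex chromosomes uses no filter. It was 2.69 to 4.51 CPM (the read count relative to the library total) in the day-1 inputs and 356 to 377 CPM in the day-6 inputs. The m6A pulldown libraries of day 1 had 1.08 to 1.62 CPM, while those of day 6 had 218 to 303 CPM, and the inhibitor-treated inputs gave 3.27 to 4.07 CPM and 440 to 481 CPM. The split followed the day, and with it the folder, in each kind of Kelly library compared, and the 2 cannot be told apart. Mitochondrially encoded mRNAs took 2.81% of counts at 1 day and 4.53% at 6 days, and ribosomal protein mRNAs 8.37% and 16.3%. The part of these library differences in the gene results below was not tested. Offset values, counts over single-copy genes and values of the inhibitor-treated cells are set beside some of them. The inhibitor-treated inputs come from the same folders as the DMSO inputs of their day, so their change with time is confounded in the same way.

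The adrenergic label of the cells held at both times. All 12 adrenergic markers, among them HAND2, GATA3, TH and DBH, stood at 10 CPM or more in both groups. Their summed level was 14407 to 16051 CPM at 1 day and 36380 to 37397 CPM at 6 days. This rise was mostly through CHGA, with means of 6481 and 22087 CPM, and was not shared by all markers. GATA3 had means of 233 and 249 CPM, and DBH was lower at 6 days (2447 and 1865 CPM). Of 12 mesenchymal markers 3 reached 10 CPM at 1 day and 4 at 6 days. Their sum rose from 154 to 159 CPM to 831 to 841 CPM, mostly through TWIST1, while COL1A2 was at 0 in both groups. Of the Schwann cell markers 6 summed to at most 6.44 CPM, with CDH19 at 0 at both times. GFAP, the other listed one, stood at 1.60 to 2.11 CPM at 1 day and at 8.42 to 14.2 CPM at 6 days, and shares exonic bases with CCDC103. The 3 Schwann markers that could be tested all rose at least 2-fold. Of these, ERBB3 and FOXD3 had means of 0.418 and 0.155 CPM at 1 day and passed the low-count filter through the day-6 libraries. Blood and endothelial markers summed to at most 18.9 CPM, with HBB, HBA1 and CD3E at 0 at both times.

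The clearest common movement was in the regulators of the integrated stress response. Of 17 tested members 16 rose and none fell, against 37.9% and 41.1% of all genes, and 14 rose at least 2-fold against 19.5%. FGF21, counted among the rises, was almost absent at 1 day and passed the low-count filter through the day-6 libraries. Its rise therefore follows from the filter. The median log2 change was 2.12, beside -0.06 over all genes tested. These genes are short and GC-rich as a group, with a median exon length of 3030 bases against 5217 and a median GC content of 56.7% against 48.5%. With the offsets all 17 rose, FGF21 included, 11 of them at least 2-fold, with a median of 1.21. Among the 14 single-copy members 13 rose and none fell.

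ATF4, the transcription factor at the head of the programme, was already abundant, with 524, 494 and 482 CPM at 1 day and 1559, 1531 and 1571 CPM at 6 days. All 3 late libraries lay far above the early ones, a log2 change of 1.62 (SE 0.047, edgeR adjusted p = 6.92e-19), with an offset value of 0.91. DDIT3, which encodes the stress factor CHOP, stood at 7.82, 8.72 and 7.67 CPM and then at 37.5, 32.7 and 37.2 CPM, 4.39-fold higher without overlap (offset value 1.21). TRIB3, a pseudokinase that restrains ATF4 and CHOP, went from 15.9, 15.1 and 13.8 CPM to 56.8, 56.6 and 54.0 CPM (offset value 0.97). Other factors of the programme moved the same way. CEBPB rose 11.4-fold from a mean of 9.77 to 112 CPM, with a log2 change of 3.51 and an offset value of 1.78. ATF5 rose 5.00-fold (offset value 1.51) and ATF3 3.95-fold. Part of the ATF4 sequence recurs elsewhere in the transcriptome (35.6% of its 31-mers), and DDIT3 and ATF5 share exonic bases with neighbouring genes, so their counts carry that uncertainty.

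Targets further down changed by very different amounts. CHAC1, an enzyme that degrades glutathione, lies at chr15:40952962-40956512 on the plus strand (GRCh38). It had 9.61, 9.17 and 7.90 CPM at 1 day and 83.7, 88.4 and 81.8 CPM at 6 days, 9.43-fold higher (log2 change 3.24, SE 0.096, edgeR adjusted p = 8.62e-19; offset value 2.03). INHBE, an inhibin subunit secreted under such stress, lies at chr12:57452323-57459280 on the plus strand and was near the limit of detection at first. Its libraries held 0.951, 0.776 and 1.17 CPM and later 11.9, 13.1 and 12 CPM, a 12.6-fold difference with an offset value of 3.25. STC2, a secreted glycoprotein, rose 8.94-fold. SESN2 and DDIT4, which both restrain the growth kinase mTORC1, rose by 1.43 and 2.12 on the log2 scale (offset values 0.75 and 1.04). VLDLR, at 11.9 and 13.2 CPM, did not pass the test (log2 change 0.14) but had an offset value of 0.90.

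The C/EBP-ATF response element, through which ATF4 with a C/EBP partner acts, can be searched for in the promoters of these genes as TGATGNAA on either strand. RefSeq promoter windows (build GRCh38.p14) matched 16 of the 17 members by symbol. In the 250 bases before any annotated start of the gene 4 of these 16 genes (25.0%) held the letters, as did 2 of 11 genes of serine, one-carbon, asparagine and proline synthesis (18.2%) and 2.31% of the tested genes in the table. A match is only a run of letters, and its absence from this window says nothing about the factor. The first 4 windows below are those of the 4 matching stress response members, and ASNS is shown from the synthesis list because it responds to amino acid shortage; MTHFD1L, the other match of that list, is not shown. Capitals mark the match, and each is written 5′ to 3′ along the strand of its gene.
CHAC1 (chr15:40953251-40953280, plus strand): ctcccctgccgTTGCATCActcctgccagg
CEBPG (chr19:33374060-33374089, plus strand): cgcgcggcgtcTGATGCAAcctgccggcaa
ATF3 (chr1:212565205-212565234, plus strand): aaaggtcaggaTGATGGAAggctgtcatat
FGF21 (chr19:48755459-48755488, plus strand): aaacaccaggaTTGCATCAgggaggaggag
ASNS (chr7:97872458-97872487, minus strand): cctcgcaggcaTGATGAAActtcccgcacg
The match begins 209 bases before the RefSeq start of its window in CHAC1, 42 in CEBPG, 191 in ATF3, 54 in FGF21 and 68 in ASNS. The counting annotation sets the outermost start of CHAC1, CEBPG and ASNS further upstream, so that these 3 matches lie inside its gene spans. The genes differed in their change, with log2 values of 3.24 for CHAC1, 1.98 for ATF3, 0.56 for CEBPG and 0.38 for ASNS. FGF21, a secreted hormone of metabolic stress, was at 0 to 0.0739 CPM at 1 day and at 0.905 to 2.11 CPM at 6 days.

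**Figure D2:**
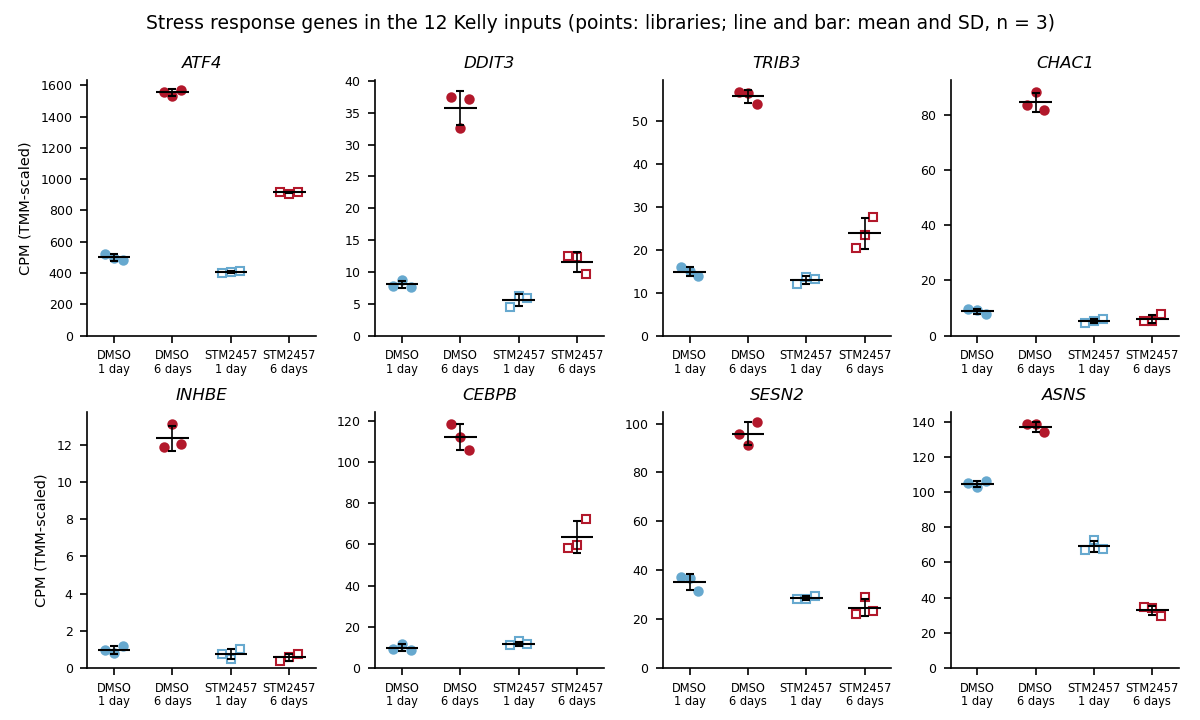
Level of 8 stress response genes in each of the 12 Kelly inputs in CPM scaled by TMM (linear axis from 0), with the mean and SD of 3 libraries per group; filled circles are DMSO and open squares STM2457, blue 1 day and red 6 days. The DMSO libraries of day 6 are the highest group in every panel, for example CHAC1 at 81.8 to 88.4 CPM against 5.27 to 7.68 CPM in STM2457 cells of the same day.

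The enzymes that supply amino acids did not rise as a block. Of 18 genes of serine, one-carbon, asparagine and proline synthesis 8 rose and 4 fell, shares of which the first is near the background, and the median log2 change was 0.11. ASNS, which makes asparagine, had 105, 103 and 106 CPM at 1 day and 139, 139 and 134 CPM at 6 days, a small rise without overlap (1.30-fold; offset value 0.78). PHGDH, the first enzyme of serine synthesis, rose 1.43-fold, and PCK2, PYCR1 and GPT2 had log2 changes of 1.39, 1.41 and 0.99 (offset values 0.65, 0.33 and 0.92). PSAT1, a later step of the same pathway, stood at 59.3 and 61.2 CPM and did not pass the test (log2 change 0.03, offset value -0.26). MTHFD1 and ALDH18A1, enzymes of the folate cycle and of proline synthesis, fell by 1.43 and 1.38 on the log2 scale (offset values -0.73 and -1.39). CBS had the largest value of the list, 2.73, but 74.9% of its 31-mers occur at another locus.

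Carriers and tRNA-charging enzymes were split in the same manner. Of 14 amino acid transporters 5 rose and 5 fell, the 5 falls all at least 2-fold. SLC3A2, the heavy chain of several exchangers, rose from 159 to 277 CPM. SLC6A9, a glycine carrier, rose from 9.41 to 18.9 CPM (log2 change 0.99, offset value 0.49). SLC38A1 and SLC38A2, sodium-coupled carriers of glutamine and alanine, fell by 1.61 and 1.31 (offset values -0.78 and -0.67). SLC7A11, the cystine importer, had a mean of 11.4 CPM at both times and did not pass the test, but had an offset value of 0.83 that did. Of 20 cytosolic aminoacyl-tRNA synthetases 7 rose, none of them 2-fold, and 10 fell. CARS1, GARS1 and SARS1 rose by 0.95, 0.93 and 0.81 on the log2 scale, and RARS1, IARS1 and LARS1, members of the large synthetase complex, fell by 1.64, 1.49 and 1.39 (offset values -1.48, -0.90 and -0.63).

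Genes of protein folding in the endoplasmic reticulum were also mixed, with 7 rises and 7 falls among 18. XBP1, the factor spliced when unfolded proteins accumulate, rose from 89.7, 85.8 and 86.9 CPM to 294, 279 and 282 CPM (3.23-fold; offset value 1.73). DNAJB11, a co-chaperone, rose by 1.54. HSPA5, the main chaperone of this compartment, went the other way, from 705, 695 and 673 CPM to 420, 412 and 401 CPM. DNAJC3 and EDEM1 fell by 2.12 and 2.00. Heat shock genes leaned down, with 9 falls and 3 rises among 14, against 41.1% and 37.9% of all genes. Their median was -0.65 (offset median -0.58). HSPD1, the mitochondrial chaperonin, fell 2.84-fold. HSPA1A had a log2 change of 5.27 (offset value 4.32), but 76.9% of its 31-mers are shared with another locus, mainly its near-identical copy HSPA1B, whose log2 change of 0.09 did not pass the test (offset value -0.76, which did).

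Genes that low oxygen induces moved in both directions. Of 21 HIF targets 9 rose and 8 fell, with 5 rises of at least 2-fold, a share of rises near the background in the counts as deposited. With the offsets 11 rose and 4 fell, and the median went from 0.30 to 0.56. Among 13 single-copy members without offsets 5 rose and 6 fell. EGLN3, the oxygen sensor that HIF itself induces, had 3.66, 3.66 and 3.40 CPM at 1 day and 13.1, 16.2 and 14.9 CPM at 6 days. NDRG1, a stress-induced gene that HIF also activates, rose from 6.99 to 19.5 CPM. CA9, the carbonic anhydrase often used to mark hypoxia, rose too but from and to low means, 0.309 and 3.79 CPM (log2 change 3.55, offset value 2.23). HK2 and P4HA1, a hexokinase and a collagen hydroxylase, fell by 1.22 and 1.99, and SLC2A1, the glucose transporter GLUT1, by 0.16.

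Glycolytic genes showed no common direction, with 6 rises and 9 falls among 17. SLC16A3, which exports lactate, rose 5.14-fold from 10.4, 12.2 and 8.43 CPM to 54.0, 54.0 and 52.8 CPM. SLC16A1, a lactate and pyruvate carrier, and LDHA, a subunit of lactate dehydrogenase, fell by 1.54 and 1.05. TXNIP, whose transcript follows glucose, did not pass the test at 131, 128 and 132 CPM against 120, 126 and 118 CPM (log2 change -0.12, edgeR adjusted p = 0.0569; offset value 0.03). Among 17 genes of glucose sensing and insulin signalling 6 rose and 7 fell. IGFBP2, a secreted binder of insulin-like growth factors, rose 1.61 on the log2 scale and the receptor gene IGF1R fell by 1.90.

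Transcripts of sterol and fatty acid synthesis fell more often than they rose. Of 26 genes of cholesterol synthesis and uptake 14 fell and 7 rose, against 41.1% and 37.9% of all genes, and all 7 changes of at least 2-fold were falls. HMGCS1, an early step of the mevalonate pathway, dropped from 129, 129 and 152 CPM to 47.3, 50.9 and 46.8 CPM. That is 2.85-fold lower without overlap (log2 change -1.51, SE 0.077, edgeR adjusted p = 1.88e-14; offset value -0.88). MSMO1, a demethylase late in the pathway, fell by 1.53. SQLE, the squalene epoxidase, fell by only 0.22 (offset value -0.02, not passing), and PMVK had a log2 change of 0.80 that turned to -0.80 with the offsets. Of 11 genes of fatty acid synthesis 9 fell, with a median of -0.59 (offset median -0.35, with 6 falls). ACACA, which makes malonyl-CoA, fell by 1.65 on the log2 scale (offset value -1.02). The desaturase SCD fell 2.35-fold, from 616, 606 and 613 CPM to 249, 260 and 279 CPM, while SREBF1, whose product drives this pathway, was 1.53-fold higher with an offset value of 0.00.

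Transcripts of the dividing cell were lower as a group. Of 40 DNA replication genes 27 fell and 9 rose, against 41.1% and 37.9% of all genes, with a median of -0.41 (offset median -0.53, with 31 falls). Of 40 mitosis genes 27 fell and 9 rose as well, 16 of the falls at least 2-fold against 18.6%. The mitotic median was -0.58 (offset median -0.53), and with the offsets 29 fell, 8 of them at least 2-fold. In the single-copy set 16 of 23 replication genes and 18 of 25 mitosis genes fell.

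MKI67, the proliferation marker Ki-67, had 757, 689 and 702 CPM at 1 day and 296, 282 and 293 CPM at 6 days. The days did not overlap and the level was 2.49-fold lower (log2 change -1.31, SE 0.051, edgeR adjusted p = 1.47e-16), with an offset value of -0.64. ANLN, the anillin of the contractile ring, dropped from 121, 117 and 120 CPM to 28.3, 32.0 and 31.4 CPM. POLA1, the catalytic subunit of the primase-coupled polymerase, went from 72.7, 62.7 and 74.3 CPM to 15, 14.6 and 13.7 CPM (log2 change -2.29, offset value -1.69). GINS1, RRM1 and MCM10, also of the replication machinery, fell by 1.88, 1.64 and 1.41. ECT2, ASPM and AURKA, which act in cytokinesis and at the spindle, fell by 1.66, 1.60 and 1.52 (offset values -1.12, -0.69 and -1.63).

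A minority of the same lists stood higher. UBE2S, which extends ubiquitin chains for the anaphase-promoting complex, rose 6.14-fold from 271, 272 and 242 CPM to 1633, 1628 and 1605 CPM, with 20.1% of its 31-mers found at other loci. TYMS, the thymidylate synthase, went from 112, 102 and 92.7 CPM to 341, 341 and 324 CPM, and the centromere histone CENPA rose 3.53-fold. PCNA, the replication clamp, fell by 0.29 only (offset value -1.04), and CCNB1 rose by 0.31 (offset value 0.12, not passing). Replication-dependent histones, whose mRNAs normally lack a poly(A) tail, had 25 falls and 5 rises among 48, against 41.1% and 37.9% of all genes. With the offsets 41 of 47 fell, against 40.5%. Among histone genes above 3 on the log2 CPM scale H4C3 fell most, from 59.2, 51.8 and 58.6 CPM to between 0.634 and 1.71 CPM (log2 change -5.58, offset value -7.26).

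Regulators of G1 changed without a shared direction, with 11 rises and 7 falls among 19. CDKN1C, the inhibitor p57, was almost absent at 1 day, with 0.211, 0.333 and 0.3 CPM (6, 9 and 9 counts). At 6 days it stood at 30.5, 31.1 and 31 CPM, with little spread (log2 change 6.73, offset value 5.48). CDKN2A, the inhibitor locus of p16 and p14ARF, rose 7.83-fold (offset value 2.51) and CDKN1B by 0.77. CDK6 and E2F2, a G1 kinase and an E2F activator, fell by 1.66 and 1.44 (offset values -0.73 and -1.73), and CCND1, cyclin D1, by 0.48. CDKN1A, the inhibitor p21, had a log2 change of 0.24 that turned to -0.42 with the offsets, so no direction can be given. The 20 p53 targets had 9 rises and 8 falls.

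**Figure D3:**
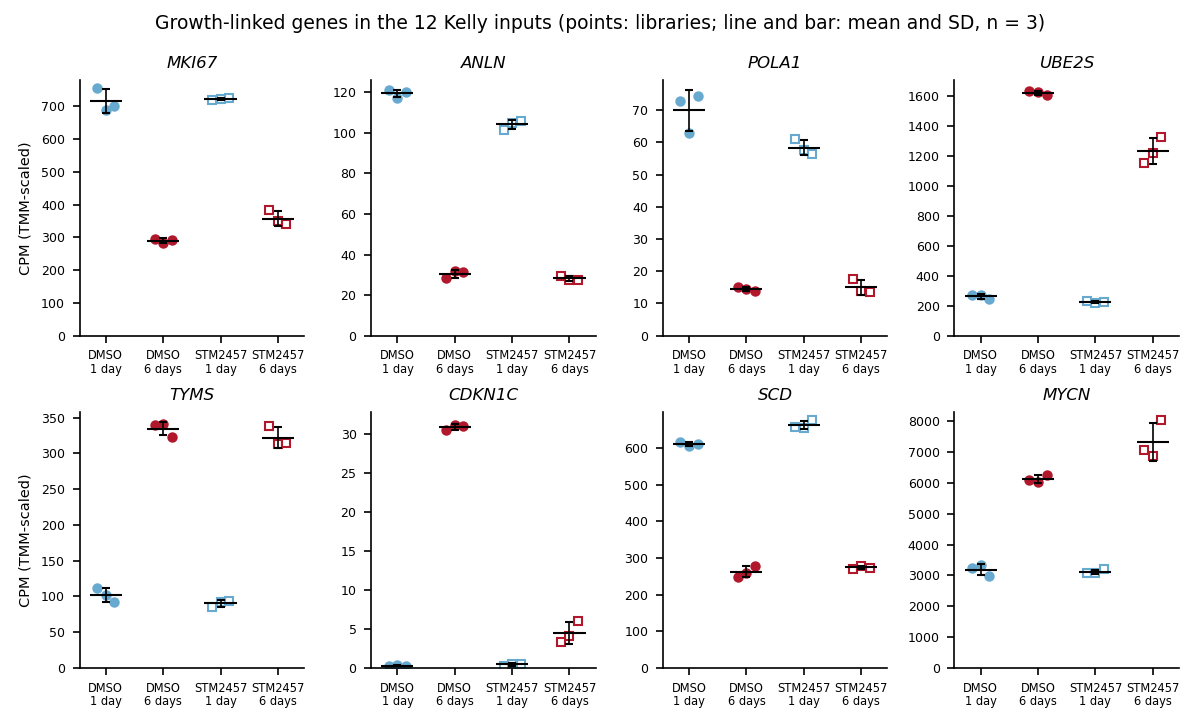
Level of 8 growth-linked genes in each of the 12 Kelly inputs in CPM scaled by TMM (linear axis from 0), with the mean and SD of 3 libraries per group; filled circles are DMSO and open squares STM2457, blue 1 day and red 6 days. MKI67, ANLN, POLA1 and SCD are lower and UBE2S, TYMS and MYCN higher at 6 days in both treatments, while CDKN1C reaches 30.5 to 31.1 CPM in DMSO and 3.33 to 5.99 CPM in STM2457 cells.

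MYCN itself was 1.91-fold higher at 6 days, at 6114, 6026 and 6275 CPM against 3247, 3328 and 2983 CPM. Its offset value was 0.24 on the log2 scale, against 0.93 without offsets. MXD3 and MXD4, which compete with MYC proteins for their partner MAX, rose by 1.82 and 1.81 (offset values 1.20 and 1.61). The 29 nucleolar and MYC-linked growth genes were mixed, with 13 rises and 11 falls. FBL, the rRNA methyltransferase fibrillarin, rose by 1.02 (offset value 0.32). POLR1A and POLR1B, subunits of RNA polymerase I, fell by 1.37 and 1.60 (offset values -0.97 and -0.88).

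Ribosomal protein mRNAs rose nearly throughout. Of 84 members tested 74 rose and 8 fell, against 37.9% and 41.1% of all genes, and 46 rose at least 2-fold against 19.5%. The median was 1.07 (offset median 0.93, with 66 rises and 13 falls). Many of these genes have processed copies elsewhere in the genome. Of the 20 single-copy members 19 rose and none fell. RPLP2, a protein of the ribosomal stalk, went from 243, 324 and 222 CPM to 2432, 2319 and 2502 CPM (log2 change 3.19, offset value 2.18), and RPL21 rose 8.66-fold. RPS10 went the other way, from 77.5, 72.3 and 67 CPM to 3.17, 3.80 and 3.22 CPM, and it shares exons with the readthrough gene RPS10-NUDT3.

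**Figure D4:**
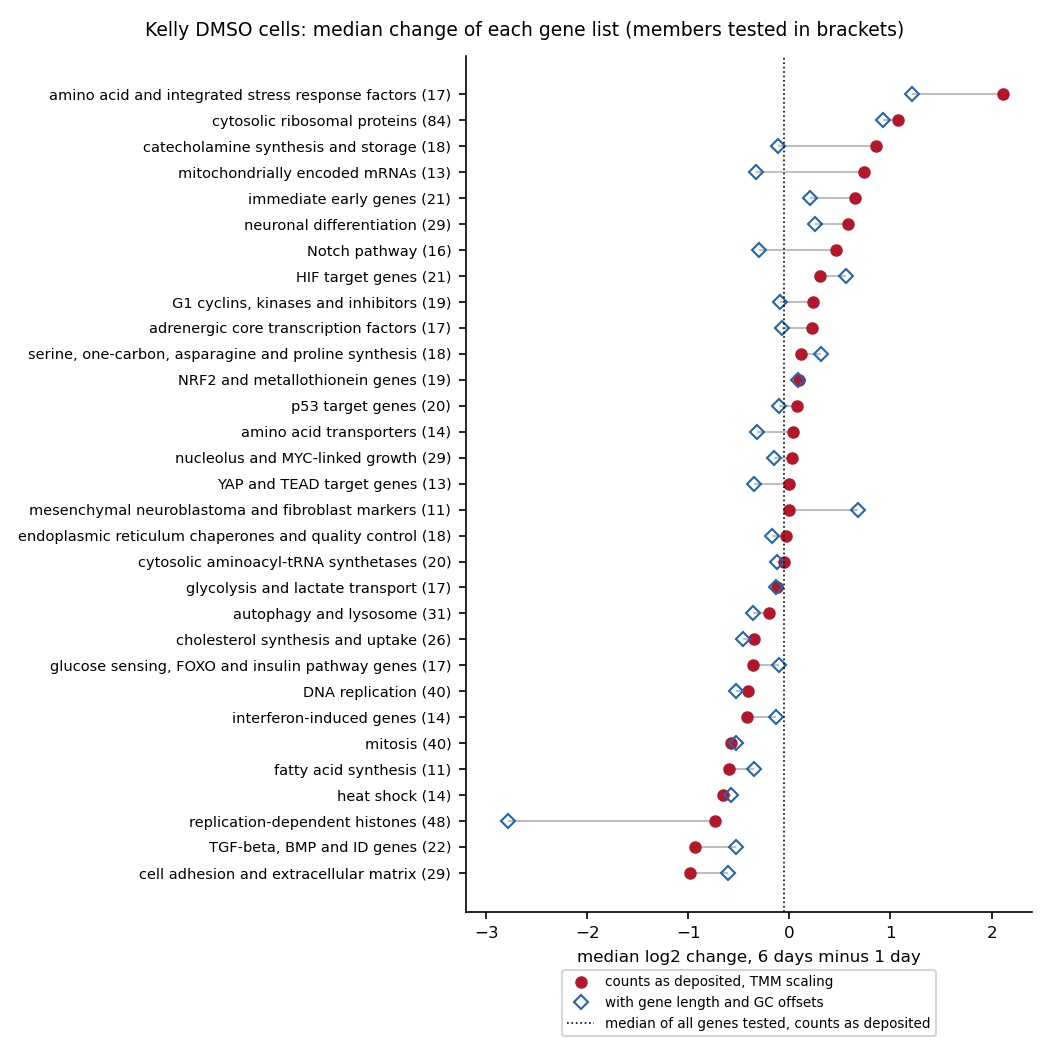
Median log2 change from 1 to 6 days in DMSO inputs for 31 gene lists, with the number of members tested in brackets; filled circles are the counts as deposited, diamonds the values with length and GC offsets, and the dotted line the median of all genes tested. Among the lists shown, integrated stress response factors (2.12 and 1.21) and ribosomal proteins (1.07 and 0.93) lie highest under both. The medians of catecholamine genes, mitochondrially encoded mRNAs and the Notch pathway are among those that change sign. Not shown are the Schwann cell markers (3 tested, medians 2.52 and 2.72 with offsets) and the blood, immune and endothelial markers (2 tested, 0.97 and 0.53).

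Genes of adhesion and matrix leaned down. Of 29 tested 21 fell and 4 rose, against 41.1% and 37.9% of all genes, and 12 fell at least 2-fold against 18.6%. The median was -0.98 (offset median -0.60, also with 21 falls). These genes are long, with a median exon length of 8446 bases. CDH11, a mesenchymal cadherin, went from 143, 131 and 139 CPM to 29.7, 26.7 and 31.6 CPM (log2 change -2.25, offset value -1.38) and the neural cadherin gene CDH2 fell by 1.42. CTNNB1, the catenin that binds cadherins, fell by 1.59, FN1, fibronectin, by 1.47, and LAMA1, a laminin chain, by 1.68 (offset values -0.75, -0.74 and -1.36). COL1A1, the main chain of type I collagen, rose 6.08-fold to 36.7, 41.0 and 36.6 CPM. Targets of YAP and TEAD, often read as a gauge of density, had 4 rises and 4 falls among 13.

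Members of the TGF-beta and BMP pathways fell in 15 of 22 cases and rose in 5, against 41.1% and 37.9% of all genes. The median was -0.94 (offset median -0.53, with 13 falls and 4 rises). As a group they are long and low in GC content, with medians of 6691.5 bases and 42.5% against 5217 bases and 48.5%. SKIL, which represses SMAD transcription, fell by 2.32, the receptor gene TGFBR1 by 2.21 and SMAD9, a BMP-responsive SMAD, by 1.95 (offset values -1.58, -1.56 and -1.48). ID2, a target of BMP signals and MYC proteins, fell by 1.11 with an offset value of -1.74. ID4 stood apart, with 0.951, 1.04 and 1.30 CPM at 1 day and 7.59, 9.96 and 8.06 CPM at 6 days. TGFB1 had a log2 change of 1.00 and an offset value of -0.06.

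Identity genes did not move as one. Of 17 adrenergic core factors 10 rose and 4 fell, but with the offsets 7 rose and 8 fell and the median went from 0.23 to -0.08. HAND2, a bHLH factor of the sympathetic lineage, rose from 742, 809 and 742 CPM to 2818, 2727 and 2842 CPM (offset value 1.28). TFAP2B, a neural crest factor, rose by 0.99. EYA1 and KLF7, the falls of this list picked by the naming rule, were lower by 1.24 and 1.41 (offset values -0.48 and -0.69). TWIST1, a partner of HAND2 and MYCN at enhancers that is also counted as a mesenchymal marker, went from 44.5, 61.4 and 51.3 CPM to 610, 596 and 581 CPM (offset value 2.56).

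Neuronal and chromaffin genes showed both signs. Of 29 genes of neuronal differentiation 16 rose and 11 fell, with a median of 0.58 (offset median 0.26). NPY, a neuropeptide of sympathetic cells, went from 9.37, 10.7 and 8.27 CPM to 150, 133 and 139 CPM (log2 change 3.89, offset value 2.29). NGFR, the low-affinity neurotrophin receptor, rose from a low 1.44, 1.59 and 1 CPM (log2 change 4.21, offset value 3.36). RET, a receptor kinase, and ELAVL4, a neuronal RNA-binding protein, fell by 1.36 and 1.41 (offset values -1.21 and -0.64). Of 18 genes of catecholamine synthesis and storage 10 rose and 8 fell, and the median went from 0.85 to -0.11 with the offsets. CHGA, a granin of secretory vesicles and the most abundant protein-coding mRNA of the day-6 libraries, rose from 6237, 7004 and 6201 CPM to 22400, 21680 and 22180 CPM (log2 change 1.75, offset value 0.78). SLC18A2 and SLC6A2, the vesicular and the membrane carrier of noradrenaline, fell 2.28-fold and 2.38-fold.

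Several short or GC-rich lists depended on the offsets. Of 16 Notch pathway genes 10 rose and 3 fell in the counts as deposited and 4 rose and 10 fell with the offsets. HES6, a regulator of the HES family, had a log2 change of 2.54 and an offset value of 0.65. Of 13 mitochondrially encoded mRNAs 10 rose and 1 fell, and 5 rose and 8 fell with the offsets. Immediate early genes had 14 rises and 2 falls among 21, and 9 rises and 7 falls with the offsets. JUND, a component of AP-1, rose by 3.07 (offset value 1.03), while EGR1 stood at 2.29, 1.15 and 1.73 CPM against 1.35, 1.54 and 0.758 CPM and did not pass the test without offsets (log2 change -0.51). With them it did (offset value -0.97, edgeR adjusted p = 0.028).

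Autophagy and lysosome genes had 16 falls and 7 rises among 31 (median -0.20), against 41.1% and 37.9% of all genes. LAMP2, a lysosomal membrane protein, was lower by 1.73 (offset value -0.90). MAP1LC3B, the autophagosome protein LC3B, rose by 0.97. Of 19 NRF2 and metallothionein genes 8 rose and 6 fell. SRXN1, the sulfiredoxin, was at 0.0352, 0.998 and 0.467 CPM at first and at 24.8, 24.3 and 21.3 CPM later. Interferon-induced genes had 3 rises and 4 falls among 14.

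The largest changes of all were mostly in genes that are hard to count. Of the 8 largest rises among genes above 3 on the log2 CPM scale, AKAP17A, SLC25A6 and GTPBP6 are listed on both sex chromosomes, and XAGE1B, GAGE13 and BOLA2B share 77.8% or more of their 31-mers with another locus. SLC25A6, a mitochondrial ADP/ATP carrier, went from 1.13, 2.22 and 0.8 CPM to 311, 295 and 316 CPM (log2 change 7.80, offset value 6.96). The others of the 8 were RHPN1 and CDKN1C, which are single-copy. Of the 8 largest falls, ABCB6, SNRPN, ADSL, SMARCE1 and RPS10 share exonic bases with another gene name, and H4C3, CXCL12 and DDX6 do not.

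Among single-copy genes the largest rises by offset value included SNCG, OCIAD2, CYB5A, TNNI1 and PHLDA1, a selection made after the values were seen. SNCG, gamma-synuclein, had 8.24, 7.54 and 6.60 CPM at 1 day and 331, 317 and 331 CPM at 6 days (log2 change 5.44, offset value 3.88). CYB5A, cytochrome b5, which supplies electrons to desaturases and sterol enzymes, rose by 3.14 (offset value 3.95), and TNNI1, slow troponin I, by 4.68 (offset value 4.73). On the other side CXCL12, the ligand of CXCR4, fell from 22.0, 17.5 and 21.0 CPM to between 0.948 and 1.63 CPM. ABCB1, the multidrug efflux pump, fell by 2.71 and ADCYAP1R1, the receptor of the peptide PACAP, by 2.58 (offset values -2.13 and -2.53). DDX6, a helicase of mRNA decay, fell by 3.50 (offset value -2.60).

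Cells kept with STM2457 for the same times give separate libraries from the same folders. There 76.9% of 13363 genes passed the test from 1 to 6 days, 36.8% as rises and 40.1% as falls. HMGCS1 fell by 1.64 there beside 1.51 in DMSO, POLA1 by 1.92 beside 2.29, and TYMS rose by 1.85 beside 1.70. The difference between the treatments in their change with time was tested as an interaction, in which a shift of the processing run common to both arms cancels by construction. Of 13773 genes 8.41% passed: 506 (3.67%) had a higher and 652 (4.73%) a lower change in STM2457 cells (edgeR, adjusted p under 0.05). Leaving out any 1 of the 6 libraries of day 6 turned this split, to 932 higher and 601 lower without the first STM2457 library, 553 and 449 without the second, 838 and 553 without the third, and 588 to 603 higher and 421 to 434 lower without 1 DMSO library. Dependence on length and GC content was weak in this contrast, with medians from -0.17 in the shortest to 0.10 in the longest decile of genes. The third STM2457 library of day 6 was the shallowest of the 12, with 5765458 counts, and had 1.79% of counts on mitochondrially encoded mRNAs beside 5.09% and 4.06% in the others.

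The integrated stress response rose less, or not at all, with the inhibitor. Of its 17 tested members 12 had a lower change in STM2457 cells, against 4.73% of all genes, and none a higher one, with a median difference of -1.06. The count was 12 or 13 with any 1 of the 12 libraries left out. The 17 members again include FGF21, which was almost absent in DMSO cells at 1 day. CHAC1 was at 4.49, 5.22 and 6.05 CPM at 1 day with the inhibitor and at 5.27, 5.30 and 7.68 CPM at 6 days. The difference from its change in DMSO cells was -3.15 (SE 0.189, edgeR adjusted p = 2.29e-10). INHBE, at 0.387, 0.588 and 0.749 CPM at 6 days with the inhibitor, differed by -4.19 (SE 0.475, edgeR adjusted p = 3.15e-06). STC2, SESN2, DDIT4 and TRIB3 differed by -2.72, -1.64, -1.34 and -1.06. ATF4 still rose in treated cells, from 399, 405 and 412 CPM to 920, 908 and 916 CPM, with a difference of -0.46. CEBPB rose there as well, to 58.4, 59.6 and 72.5 CPM, and PPP1R15A, the phosphatase subunit that ends the response, showed a difference of -0.17 that did not pass the test.

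The same contrast separated the supply genes that the time change alone had left mixed. Of the 18 genes of serine, one-carbon, asparagine and proline synthesis 12 had a lower change in STM2457 cells and none a higher one. Of all genes 4.73% had a lower and 3.67% a higher change. ASNS, higher in DMSO cells at 6 days, fell in treated cells from 66.8, 72.8 and 67.6 CPM to 34.4, 34.1 and 29.6 CPM, a difference of -1.44 (SE 0.091, edgeR adjusted p = 3.26e-10). ALDH1L2, CTH and PSAT1, which did not pass the test of time in DMSO cells without offsets, differed by -1.62, -1.10 and -0.85. Against the same 4.73%, 7 of 14 amino acid transporters had a lower change, among them SLC7A11 by -2.04. So did 9 of 20 tRNA synthetases, among them CARS1 by -0.84 and GARS1 by -0.68. Of the HIF targets 6 of 21 had a lower change, again against 4.73%, EGLN3 by -1.53 and NDRG1 by -1.24. The lactate exporter SLC16A3 differed by -1.31.

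Cell-cycle genes differed between the arms about as often as all genes did. Of 40 mitosis genes 1 had a higher and 2 a lower change in STM2457 cells, and of 40 DNA replication genes 3 had a higher change. Of all genes 8.41% passed this test, 3.67% with a higher and 4.73% with a lower change. These counts are therefore no result about the 2 lists. MKI67 differed by 0.29 and TOP2A by 0.11, the latter without passing the test. Most ribosomal protein genes rose in both arms, and 35 of 85 had a lower change with the inhibitor, with a median difference of -0.23. Among adrenergic factors 8 of 17 had a higher change with the inhibitor, TBX2 among them at 0.71. RET differed by 0.91, and CDKN1C by -3.54.

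**Figure D5:**
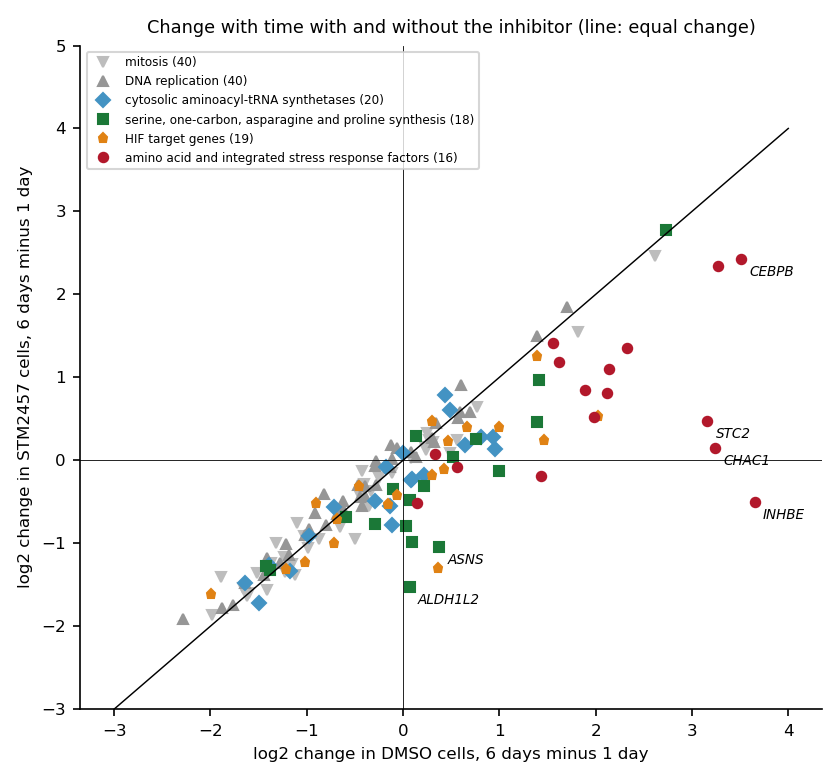
Log2 change from 1 to 6 days in DMSO inputs (horizontal) against STM2457 inputs (vertical) for the members of 6 gene lists that were tested in both; the diagonal marks equal change. Mitosis and DNA replication genes lie along the diagonal, while stress response genes lie to its right, with CHAC1 at 3.24 and 0.14 and INHBE at 3.65 and -0.50.

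The m6A pulldown libraries of the same DMSO cells hold the enriched part of the RNA and so mix abundance with methylation. Of 13000 genes 46.4% passed the test from 1 to 6 days, 23.1% as rises and 23.3% as falls. CHAC1 and INHBE rose there by 3.01 and 3.58, STC2 by 3.60 and ATF4 by 1.56, and HMGCS1 and POLA1 fell by 1.54 and 3.25. DDIT3 had a log2 change of 0.54 that did not pass the test (edgeR adjusted p = 0.0718). XBP1, higher in the inputs, had a log2 change of 0.04 there and did not pass the test.

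Other vehicle controls of the series give the scale of these levels. With all 22 inputs scaled together, CHAC1 had a mean of 82.0 CPM in Kelly cells at 6 days, against 8.54 at 1 day, 5.38 in the MYCN-amplified line NGP at 6 days and 9.26 in 2 Kelly xenografts. SESN2 stood at 92.8 CPM in Kelly cells at 6 days, 5.44 in NGP cells and 20.7 in the xenografts. INHBE was as high in NGP cells, at 12.2 CPM, as in Kelly cells at 6 days, at 12 CPM, and at 0.997 CPM in the xenografts. CDKN1C, at 29.9 CPM in Kelly cells at 6 days, was at 68.9 CPM in the xenografts and at 0.295 CPM in NGP cells. The xenografts are labelled as DMSO controls of 14 days. These groups differ in cell line, host, time and processing folder, and no test was made between them.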

How the data were processed

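The deposited tables give raw read counts per gene, made by the authors with featureCounts from Subread 1.5.3 over exons of a GENCODE protein-coding annotation, paired-end and with no strand option, per the file headers. HISAT2 2.1.0 and Trimmomatic 0.36 on GRCh38 are named in the submitters' processing notes. All 19923 names per table were used. Counts were tested with edgeR 4.0.16 (TMM, filterByExpr, quasi-likelihood F test, Benjamini-Hochberg over all genes tested, threshold 0.05), in R 4.3.3. Standard errors are the log2 change over the square root of F. CPM values are TMM-scaled over the 12 Kelly inputs, except the sum over names on both sex chromosomes, which uses library totals. Offsets were per-library loess trends (span 0.3) on log2 exon length and GC content, known for 95.5% of names. Single-copy means under 10% of 31-mers at another gene, 1 chromosome and no exonic base shared. The members, gene lists and tests were chosen with earlier results of these data known.

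Named genes followed a rule: 21 index genes (4 are not reported here), the 8 largest rises and 8 largest falls above 3 on the log2 CPM scale, and in each list the 2 largest rises and falls of at least 1.5-fold above 2 on that scale, all with an adjusted p under 0.05 and no overlap. Further list members were named after their values were seen. Replicates of a day differed by more than sampling noise (chi-square per degree of freedom 2.75 to 9.42). Same-numbered libraries of the 2 days did not deviate together (correlations 0.04, 0.004 and -0.03). On simulated counts for 13221 genes the main comparison recovered 44 of 48 genes changed 2-fold, 39 of 50 changed 1.5-fold, and called 9 unchanged genes. Unlike the data, the simulation changed only a small part of the genes, with a common dispersion and no trend on length or GC content. It therefore gives no error rate for the real contrast. Alternatives were DESeq2 1.42.0, other scaling, no low-count filter, a replicate block and leaving out each library; the filter was varied for the DMSO input comparison only.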

Additional observations from a re-analysis of the deposited data

Results flagged for a closer look

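For 57 of the 160 genes named by rule, the change from 1 to 6 days differed between DMSO and STM2457 cells in the interaction test (edgeR, adjusted p under 0.05); values are log2 differences, STM2457 minus DMSO, and no cause was tested. Stress and amino acid genes had a lower change with the inhibitor: CHAC1 by -3.15, INHBE by -4.19, SESN2 by -1.64, DDIT4 by -1.34, CEBPB by -1.11, TRIB3 by -1.06, DDIT3 by -1.05, ATF4 by -0.46, ASNS by -1.44, PYCR1 by -0.47, SLC6A9 by -1.09, CARS1 by -0.84, GARS1 by -0.68 and IARS1 by -0.26. Genes of protein folding, hypoxia, lactate and lipid metabolism did likewise: XBP1 by -0.66, SDF2L1 by -0.61, HSPA5 by -0.25, HSPB1 by -0.41, EGLN3 by -1.53, NDRG1 by -1.24, SLC16A3 by -1.31, IGFBP2 by -0.43, ACSS2 by -0.78 and SREBF1 by -0.66. The other lower values were those of CDKN1C by -3.54, XAGE1B by -2.81, PHLDA1 by -1.94, TNNI1 by -1.76, TGFB3 by -1.38, NGFR by -1.19, SPRY4 by -1.16, SNCG by -1.08, H2AC20 by -1.02, BOLA2B by -0.83, CYB5A by -0.78, VGF by -0.64, RPLP2 by -0.61, CDKN1A by -0.56, TWIST1 by -0.48, JUND by -0.42 and HES6 by -0.38. Higher changes with the inhibitor were found for RHBG by 1.45, ADSL by 1.21, DLL1 by 1.02, TEAD1 by 0.98, RET by 0.91, SKIL by 0.87, FOSL2 by 0.66, HEYL by 0.55, DDX6 by 0.54, SLC6A2 by 0.48, ELAVL4 by 0.44, IGF1R by 0.40, MAOA by 0.34, MKI67 by 0.29, CCND1 by 0.29 and MYCN by 0.28. Groups of 3 libraries are too small for the test of a library far from the others, so none was made.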

How the results depend on the processing

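The count of 10452 changed genes in DMSO cells held within 1.5 times under every normalization, tool, filter, depth, block and leave-one-out alternative (10089 to 10238 with 1 library left out). Restricting to single-copy genes, an alternative chosen after seeing the data, left 6481 (6073 with offsets), since fewer genes were tested. Rises of at least 2-fold were 2581, and 1623 single-copy or 1149 single-copy with offsets; such falls were 2457, and 1541 with offsets, 1544 with offsets and the block, 1474 single-copy and 855 single-copy with offsets. With length and GC offsets, with or without the block, 41 histones fell, 9 immediate early, 4 Notch and 5 mitochondrially encoded genes rose, and 8 mitosis genes fell at least 2-fold. Among single-copy genes, where lists are shorter by construction, list members that changed were 366 (372 with offsets) of 602; 16 replication genes and 3 heat shock genes (4 with offsets) fell; 19 ribosomal protein genes (18 with offsets), 5 HIF targets and 2 mitochondrially encoded genes (1 with offsets) rose. With single-copy genes and offsets, 9 immediate early and 4 Notch genes rose; at least 2-fold, 8 stress response factors and 10 ribosomal protein genes rose (14 without offsets), and 6 replication and 4 mitosis genes fell.

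With 1 library left out the counts that changed in STM2457 cells were 9694 to 10322 (10282 with all), those that differed between the treatments 814 to 1533 (1158 with all), and those in the pulldown 4771 to 6548 (6028 with all). Stress response factors that rose were 15 or 16. The replicate number as a block left 10342 genes in the main comparison and 945 in the difference between treatments. It moved no count of calls by over 1.5 times on its own, though some calls within lists changed. List members that changed were 598 beside 602 without the block, and immediate early genes that rose were 12 beside 14. Since the numbers do not pair the libraries, this is not read further. No library of day 1 correlated best with the day-6 library of its own number.

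Of 160 genes named by rule, 143 kept direction and call under every alternative run and 11 turned sign, each under length and GC offsets, which remove the trend of change on those measures by construction. On the log2 scale the values with offsets, with offsets and the block, and for single-copy genes with offsets were -0.42, -0.42 and -0.47 for CDKN1A; -0.13, -0.13 and -0.33 for SDF2L1; -0.80, -0.80 and -0.9999 for PMVK; -0.40, -0.39 and -0.48 for IRF7, and -0.78, -0.78 and -1.08 for H1-2. With offsets and with offsets and the block they were 0.0286 and 0.0284 for TXNIP, -0.098 and -0.095 for EBP, -0.042 and -0.041 for HSPB1, -0.056 and -0.055 for TGFB1, and -0.18 and -0.17 for H2AC20. IFI6 was at -0.0046 with offsets and -0.24 as a single-copy gene with them. FOS lost its call with the offsets (log2 change 0.92), without the third DMSO library of day 1 (0.99) or the first of day 6 (0.84), EGR1 gained one with the offsets (-0.97), and ARRDC4 and TXNIP gained one without 1 library (-0.49 and -0.16).

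Depth limits the rare transcripts, such as CDKN1C with 6 to 9 counts per library at 1 day. Time and processing run cannot be told apart, and p-values cover the spread between libraries only.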
